A study of Mus musculus with 12 samples.

Results

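A set of 60 genes was lower in 2 stages of antibody-secreting cell development when the transcription factor Mist1 was absent, and these genes are described here in every library of the series. They were selected on the values themselves. A gene was taken if its mean was at least 5 TPM (a length-corrected share of the transcripts of a library) in both control groups, and if its mean without Mist1 was at most 0.67 of the control mean in cultured plasmablasts (PBs) and again in splenic plasma cells (PCs). Of 24189 gene names shared by all RNA-seq files, 8761 met the minimum in both controls. Of these, 91 met the ratio in PBs, which is 1.04%, and 698 met it in PCs, which is 7.97%. Both ratios were met by 68 genes. Names of small RNAs and the genes Bhlha15, Rab3d, Serpini1, Serpinb1a, Mib1, H2-T24 and Ckb were left out, which removed 8 of the 68 and left the 60 members.

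Mist1, encoded by Bhlha15, is a basic helix-loop-helix factor that binds as a dimer to E-boxes, short DNA words of the form CANNTG. It is known as a regulator of professional secretory cells such as the acinar cells of the pancreas, where it maintains the organisation of secretory vesicles. In the B cell lineage the gene is turned on as B cells become plasma cells, and its expression depends on the unfolded protein response factor Xbp1.

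The 10 RNA-seq libraries, 2 in each group, came from mice on the C57BL/6 background. PBs were grown from splenic B cells on CD40L- and BAFF-expressing feeder fibroblasts, first with IL-4 and then with IL-21, and were sorted at day 8 on surface markers that included CD138. They carried Xbp1(fl/fl) (control), Bhlha15(CreER/CreER) (a knock-in that disrupts Bhlha15, without Mist1) or Cd23-Cre Xbp1(fl/fl) (without Xbp1). PCs were splenic TACI+CD138+ cells, sorted on day 7 of the response to NP-KLH, a hapten-protein conjugate, and were labelled wildtype (control) or Cd23-Cre Bhlha15(fl/fl) (without Mist1). The Cd23-Cre transgene deletes in B cells from the immature stage on, so loss in both deletion groups preceded plasma cell differentiation. Mist1 binding was measured in 2 further experiments by streptavidin pulldown of biotin-tagged Mist1 (Bio-ChIP-seq). These used CD138+ PBs of Bhlha15(fl/fl) R26(BirA/BirA) mice after 4 days of lipopolysaccharide culture. The floxed allele carries the tag, and BirA is the ligase that adds biotin. The control and Mist1-deficient PBs come from separate mouse lines, so the line cannot be told apart from the loss of Mist1. The study's table lists the wildtype-labelled PCs as Bhlha15(fl/fl), and the series text states that the Bhlha15(CreER/CreER) libraries were not used for differential analysis.

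The targeted gene followed the labels. In the control PBs Bhlha15 stood at 176 and 159 TPM, and in the Bhlha15(CreER/CreER) PBs the level was 0.2100 and 0.551 TPM. Wildtype PCs held 258 and 242 TPM, and PCs without Mist1 14.4 and 16.6 TPM. PBs without Xbp1 also had little Bhlha15 mRNA, at 3.57 and 2.604 TPM. The level of Xbp1 fell from 3168 and 3043 TPM to 1981 and 2024 TPM upon its deletion, a level over the whole gene that does not single out the deleted part. All 10 plasma cell markers examined were detected in every group. Between 11514 and 12024 genes reached 1 TPM in a library, and the depth of the libraries is unknown because TPM keep no record of it.

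The Mist1-bound sequences at the starts of 6 members, in order of the geometric mean of their ratios, show the E-boxes around the midpoints of the regions. The midpoint comes from the limits of a region, and where in it binding was strongest was not examined. Each line gives the central 200 bases of the Mist1 region found in both experiments, on the plus strand of mm9, with every CANNTG in capitals. The Cib2 stretch holds 116 bases because untranslated bases were left out, and for the same reason none is given for LOC100504608.
Tmem150a, chr6:72305792-72305991, no annotated exon: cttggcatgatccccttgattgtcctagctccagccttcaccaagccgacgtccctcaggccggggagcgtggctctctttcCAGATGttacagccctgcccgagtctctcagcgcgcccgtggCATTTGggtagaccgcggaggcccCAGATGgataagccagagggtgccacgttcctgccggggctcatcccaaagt
Cib2, chr9:54407710-54407825, partly in an exon: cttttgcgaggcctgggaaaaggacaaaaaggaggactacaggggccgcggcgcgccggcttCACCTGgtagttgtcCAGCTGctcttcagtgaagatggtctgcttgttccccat
Mrgpre, chr7:150969816-150970015, no annotated exon: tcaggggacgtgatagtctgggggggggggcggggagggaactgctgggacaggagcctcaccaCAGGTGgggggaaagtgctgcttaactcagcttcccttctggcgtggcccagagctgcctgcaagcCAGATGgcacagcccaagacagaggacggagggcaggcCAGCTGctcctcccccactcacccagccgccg
Abcb6, chr1:75176402-75176601, in an exon: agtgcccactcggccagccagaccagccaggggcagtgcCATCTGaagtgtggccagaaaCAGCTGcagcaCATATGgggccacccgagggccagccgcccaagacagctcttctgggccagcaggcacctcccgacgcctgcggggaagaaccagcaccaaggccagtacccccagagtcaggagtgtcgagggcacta
Qtrt1, chr9:21216431-21216630, partly in an exon: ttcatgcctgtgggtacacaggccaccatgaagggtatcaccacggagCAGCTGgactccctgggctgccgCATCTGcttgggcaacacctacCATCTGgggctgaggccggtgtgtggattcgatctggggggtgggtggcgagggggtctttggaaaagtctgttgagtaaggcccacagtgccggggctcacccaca
Gpr65, chr12:99507729-99507928, no annotated exon: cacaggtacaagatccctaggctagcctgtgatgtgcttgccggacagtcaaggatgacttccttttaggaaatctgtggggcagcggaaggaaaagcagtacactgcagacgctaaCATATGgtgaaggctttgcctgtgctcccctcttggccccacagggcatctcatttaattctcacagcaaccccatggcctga
The stretches of Cib2, Mrgpre, Abcb6 and Qtrt1 hold the palindrome CAGCTG. The words CAGATG or CATCTG, which are reverse complements of each other, are in the stretches of Tmem150a, Mrgpre, Abcb6 and Qtrt1. The Gpr65 stretch holds a single E-box, CATATG.

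For most members the ratio in PCs was the lower of the 2. The ratio was lower in PCs than in PBs for 57 of the 60, with a median of 0.358 in PCs (range 0.0819 to 0.639) and of 0.599 in PBs (range 0.327 to 0.6675). Over the 8761 genes the median ratio was 1.01 in PCs and 0.983 in PBs. Of these genes, 7.97% met the limit of 0.67 in PCs and 1.04% in PBs. The Bhlha15 allele, control line, culture and library series also differ between the stages and cannot be told apart from stage. In PCs 27 members were more than 3-fold lower, against 0.616% of the 8761 genes, and in PBs this held for LOC100504608. Both Mist1-deficient libraries lay below both control libraries for all 60 members in each stage. That was also so for 24.4% of the 8761 genes in PBs and for 36.5% in PCs. These counts describe the selection, since the ratios in question chose the members, and they carry no test. At the edges of the selection, Ergic2 (ratio in PBs 0.6675) was inside and Naip2 (0.6715) outside. For PCs, Pdcd4 (0.639) was inside and Tmem229b (0.687) outside. Left out by the minimum level were Zfp667, at 4.62 TPM in control PBs, and Phldb1, at 4.97 TPM in control PCs. Of the libraries left out in turn, the first Bhlha15(CreER/CreER) library moved the number of members farthest: without it 114 genes passed, 56 of them members.

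**Figure D1:**
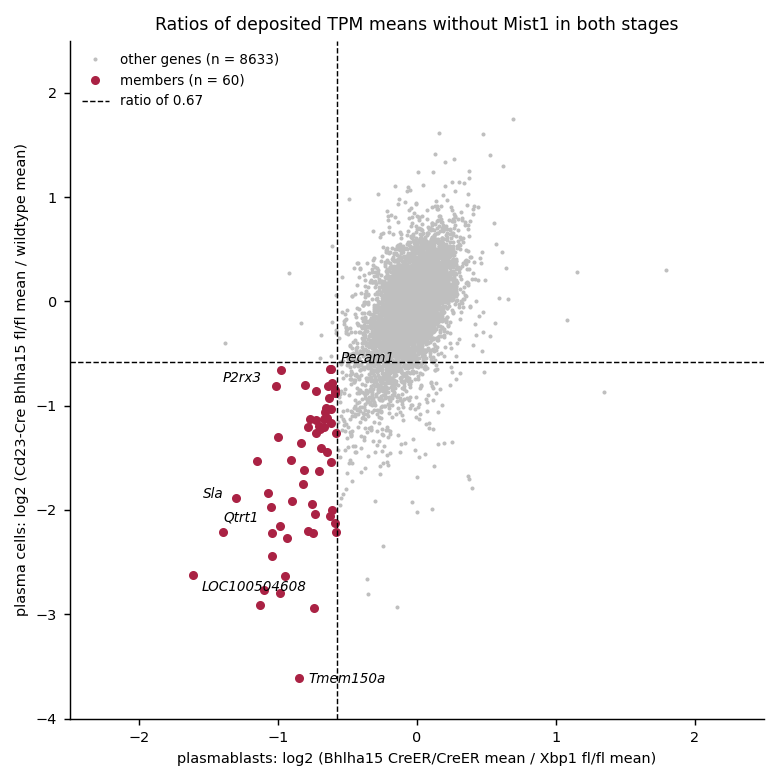
Each point is one of 8693 genes of at least 5 TPM in both control groups, without the names left out of the selection and genes at 0 in a Mist1-deficient group. The x axis is the log2 ratio of mean TPM without Mist1 to control in PBs, the y axis the same in PCs, and dashed lines mark the ratio of 0.67. The 60 members (dark red) fill the lower left corner, with Tmem150a lowest on the PC axis and LOC100504608 farthest left. 1 gene lies outside the axes.

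Summed over the 60 members, the level was 1680.4 and 1687 TPM in the control PBs and 988 and 955 TPM in the PBs without Mist1. It was 4407 and 3848 TPM in the control PCs and 1410.4 and 1450.1 TPM in the PCs without Mist1. The control PC libraries differed between themselves in these genes more than in others. The first of them was the higher for 53 of the 60 members (88.3%), against 37.5% of the 8761 genes, and the median absolute difference between these libraries was 0.275 on the log2 scale for members and 0.104 for the 8761 genes. In the same libraries the neutrophil markers summed to 988 and 461 TPM and the B cell markers to 1065 and 1423 TPM, and the part of these cells in the difference was not tested. Without the first control PC library 60 genes passed the selection, 59 of them members.

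Surface receptors, channels and other surface proteins formed a group of 10 members: Tmem150a, Mrgpre, Gpr65, Gpr55, Ccrl2, P2rx3, Kcnk5, Pkd2l2, Cd84 and Pecam1. Tmem150a, a plasma membrane protein that helps recruit a phosphatidylinositol kinase complex, had the deepest loss in PCs of all members. It was at 189 and 148 TPM in the control PCs and 13.1 and 14.5 TPM without Mist1, a 12.2-fold lower mean. In PBs, where Tmem150a was weakly expressed, it was at 4.64 and 5.48 TPM in the controls, 3.24 and 2.39 TPM without Mist1 and 4.96 and 5.13 TPM without Xbp1. The Xbp1-deficient libraries thus lay within the range of the controls. Mrgpre, an orphan Mas-related G protein-coupled receptor, was at 5.44 and 4.66 TPM in the control PBs, 2.63 and 2.08 TPM without Mist1 and 3.001 and 3.07 TPM without Xbp1, and at 16.1 and 12.7 TPM in the control PCs and 2.178 and 2.05 TPM without Mist1. The PBs held Gpr65, a proton-sensing G protein-coupled receptor, at 61.3 and 59.6 TPM in the controls, 29.6 and 32.9 TPM without Mist1 and 30.5 and 32.8 TPM without Xbp1, and the PCs at 117 and 101 TPM in the controls and 17.8 and 17.4 TPM without Mist1. Both receptors were lower in each group without Mist1 and also without Xbp1. For Ccrl2, an atypical chemokine receptor, the values were 55.9 and 44.7 TPM in control PCs against 16.3 and 13.5 TPM without Mist1, and 12.8 and 11.1 TPM in control PBs against 5.16 and 8.32 TPM without Mist1 and 8.95 and 11.2 TPM without Xbp1. Gpr55, a receptor for lysophospholipids, was at 40.99 and 38.3 TPM in the control PBs, 21.4 and 23.96 TPM without Mist1 and 32.3 and 27.7 TPM without Xbp1, and at 233 and 206 TPM in the control PCs and 130.1 and 122 TPM without Mist1. The Gpr55 level in PCs was among the 3 highest of the members, and its ratios in the stages were 0.573 in both. The PBs held Pecam1, an adhesion molecule of leukocytes and endothelium, at 6.602 and 5.15 TPM in the controls, 3.59 and 4.08 TPM without Mist1 and 6.34 and 5.65 TPM without Xbp1, and the PCs at 66.9 and 67.2 TPM in the controls and 40.9 and 44.5 TPM without Mist1. In PBs the Pecam1 libraries without Xbp1 overlapped the controls. P2rx3, an ATP-gated cation channel, was the member with the largest excess in PBs over PCs. P2rx3 was at 42.6 and 41.2 TPM in the control PBs, 19.8 and 21.7 TPM without Mist1 and 55.1 and 69.8 TPM without Xbp1, so the groups without the 2 factors lay on opposite sides of the controls. In PCs P2rx3 was at 5.504 and 6.17 TPM in the controls and 3.47 and 3.19 TPM without Mist1. Kcnk5 (a leak potassium channel), Pkd2l2 (a channel of the polycystin family) and Cd84 (a receptor of the SLAM family) had ratios in PCs of 0.456, 0.458 and 0.526.

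**Figure D2:**
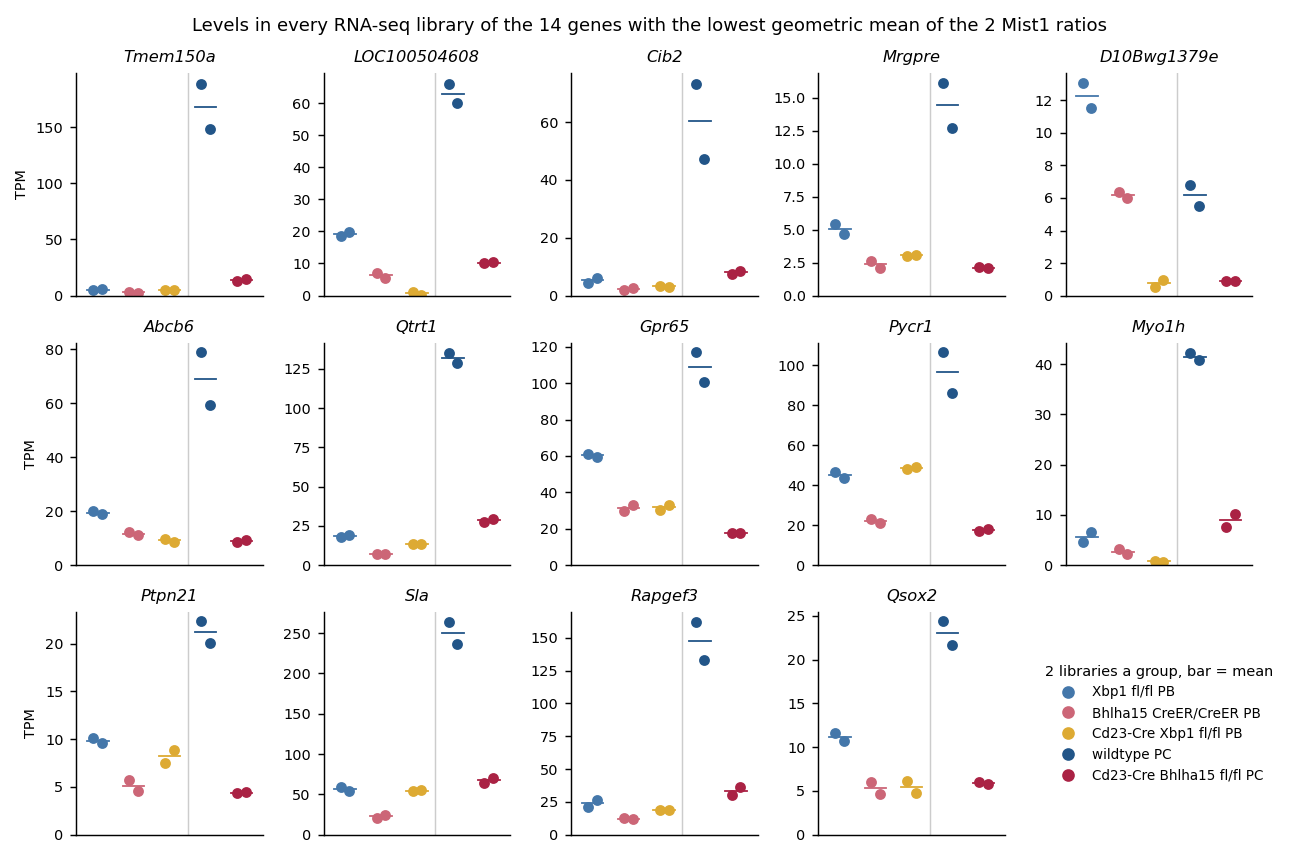
TPM in every RNA-seq library for the 14 members with the lowest geometric mean of both Mist1 ratios; each panel is a gene, points are libraries, short bars are means of 2 libraries, and the y axes start at 0. In every panel the libraries without Mist1 lie below the controls of their stage, and for LOC100504608, D10Bwg1379e, Abcb6 and Myo1h both libraries without Xbp1 lie below both PB libraries without Mist1.

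Intracellular signalling proteins made up 7 members: Cib2, Ptpn21, Sla, Rapgef3, Socs7, Rgs14 and Rassf4. For Cib2, a calcium-binding partner of integrins, the values were 73.4 and 47.4 TPM in control PCs against 7.503 and 8.596 TPM without Mist1, and 4.39 and 6.03 TPM in control PBs against 1.99 and 2.78 TPM without Mist1 and 3.39 and 3.01 TPM without Xbp1. Ptpn21, a non-receptor tyrosine phosphatase, was at 10.1 and 9.597 TPM in the control PBs, 5.69 and 4.59 TPM without Mist1 and 7.55 and 8.83 TPM without Xbp1, and at 22.4 and 20.03 TPM in the control PCs and 4.31 and 4.49 TPM without Mist1. The PBs held Sla, an adaptor that dampens antigen receptor signalling, at 58.8 and 53.8 TPM in the controls, 20.7 and 24.9 TPM without Mist1 and 53.9 and 55.4 TPM without Xbp1, and the PCs at 264 and 237 TPM in the controls and 64.6 and 70.8 TPM without Mist1. Sla had the highest level of all members in control PCs, and its ratio in PBs (0.405) was below that of all but 2 members, LOC100504608 and Qtrt1. For Rapgef3, the cAMP-activated exchange factor for Rap GTPases, the values were 162 and 134 TPM in control PCs against 30.4 and 36.03 TPM without Mist1, and 21.3 and 26.3 TPM in control PBs against 12.3 and 11.7 TPM without Mist1 and 18.5 and 18.6 TPM without Xbp1. In PBs without Xbp1, Sla lay within the control range and Rapgef3 below it. Socs7 (a suppressor of cytokine signalling), Rgs14 (a regulator of G protein signalling) and Rassf4 (a Ras-association domain protein) had ratios in PBs of 0.613, 0.603 and 0.633.

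Transport and traffic proteins were the largest group, with 14 members: Abcb6, D10Bwg1379e, Myo1h, Rpgrip1, Slc17a5, Ergic2, Cep250, Kif16b, Ehd3, Ap5b1, F8a, Ttc7b, Mtmr10 and Gramd1c. Abcb6, an ATP-binding cassette transporter of porphyrins, was at 20.1 and 18.8 TPM in the control PBs, 12.3 and 11.03 TPM without Mist1 and 9.73 and 8.51 TPM without Xbp1, and at 78.9 and 59.3 TPM in the control PCs and 8.66 and 9.397 TPM without Mist1. The PBs held D10Bwg1379e, also named Arfgef3 and related to exchange factors for Arf GTPases, at 13.05 and 11.6 TPM in the controls, 6.40 and 6.03 TPM without Mist1 and 0.542 and 0.973 TPM without Xbp1, and the PCs at 6.803 and 5.54 TPM in the controls and 0.907 and 0.865 TPM without Mist1. For Myo1h, an unconventional myosin, the values were 42.2 and 40.8 TPM in control PCs against 7.55 and 10.3 TPM without Mist1, and 4.57 and 6.503 TPM in control PBs against 3.25 and 2.13 TPM without Mist1 and 0.844 and 0.611 TPM without Xbp1. Abcb6, D10Bwg1379e and Myo1h were at lower TPM in both PB libraries without Xbp1 than in both without Mist1. The same held for Slc17a5, Ergic2 and F8a in this group and for members of other groups, such as Bckdk and Pecr. D10Bwg1379e was also among the 4 members that were not higher in control PCs than in control PBs. Rpgrip1, a protein of the ciliary transition zone, was at 9.74 and 11.2 TPM in the control PBs, 5.07 and 4.91 TPM without Mist1 and 8.703 and 7.41 TPM without Xbp1, and at 65.1 and 58.3 TPM in the control PCs and 17.3 and 17.2 TPM without Mist1. The PBs held Slc17a5, the lysosomal exporter of sialic acid, at 33.6 and 31.8 TPM in the controls, 18.4 and 18.7 TPM without Mist1 and 15.97 and 17.4 TPM without Xbp1, and the PCs at 56.5 and 46.6 TPM in the controls and 16.98 and 16.6 TPM without Mist1. For Ergic2, a protein that cycles between endoplasmic reticulum and Golgi, the values were 145 and 132 TPM in control PCs against 59.1 and 56.7 TPM without Mist1, and 77.4 and 74.2 TPM in control PBs against 50.1 and 51.1 TPM without Mist1 and 36.8 and 39.1 TPM without Xbp1. Ergic2 was the member just inside the threshold in PBs, and the ratio nearest to it was that of Asah2. The ratios of Cep250 (a centrosomal linker protein), Kif16b (an endosomal kinesin), Ehd3 (an endosomal recycling ATPase), Ap5b1 (an adaptor complex subunit), F8a (a partner of huntingtin), Ttc7b (a subunit of the phosphatidylinositol kinase complex), Mtmr10 (a myotubularin relative) and Gramd1c (a sterol transporter) lay between 0.344 and 0.551 in PCs.

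Metabolic and modifying enzymes contributed 10 members: Pycr1, Bckdk, Ppm1k, Asah2, Dhrs7, Nceh1, Pecr, Hs2st1, Gdpgp1 and Qsox2. Pycr1, the mitochondrial enzyme of the last step of proline synthesis, was at 46.6 and 43.6 TPM in the control PBs, 22.8 and 20.9 TPM without Mist1 and 47.97 and 48.9 TPM without Xbp1, and at 107 and 86.2 TPM in the control PCs and 17.2 and 18.3 TPM without Mist1. The Pycr1 libraries without Xbp1 lay above the controls by a small margin in deposited TPM. The PBs held Bckdk, the kinase that inactivates the branched-chain ketoacid dehydrogenase, at 107 and 106 TPM in the controls, 56.5 and 57.5 TPM without Mist1 and 55.96 and 54.6 TPM without Xbp1, and the PCs at 205 and 170.0 TPM in the controls and 49.2 and 50.3 TPM without Mist1. Ppm1k, the phosphatase that opposes Bckdk on the same complex, was a member too, with ratios of 0.655 in PBs and 0.583 in PCs. For Asah2, a neutral ceramidase, the values were 18.02 and 12.04 TPM in control PCs against 3.08 and 3.42 TPM without Mist1, and 10.04 and 10.4 TPM in control PBs against 7.59 and 6.04 TPM without Mist1 and 6.76 and 6.66 TPM without Xbp1. Dhrs7, a short-chain dehydrogenase, was at 121 and 118 TPM in the control PBs, 78.9 and 77.3 TPM without Mist1 and 75.5 and 60.4 TPM without Xbp1, and at 216 and 171 TPM in the control PCs and 47.01 and 50.05 TPM without Mist1. Dhrs7 had the highest control level in PBs of all members. The PBs held Hs2st1, a sulfotransferase of heparan sulfate, at 25.8 and 23.2 TPM in the controls, 17.5 and 14.2 TPM without Mist1 and 20.03 and 17.9 TPM without Xbp1, and the PCs at 25.5 and 21.5 TPM in the controls and 5.701 and 5.602 TPM without Mist1. For Qsox2, a sulfhydryl oxidase that forms disulfide bonds, the values were 24.4 and 21.7 TPM in control PCs against 5.98 and 5.77 TPM without Mist1, and 11.6 and 10.7 TPM in control PBs against 6.04 and 4.66 TPM without Mist1 and 6.07 and 4.72 TPM without Xbp1. Pecr, a peroxisomal enoyl-CoA reductase, was at 76.8 and 72.5 TPM in the control PBs, 47.5 and 51.8 TPM without Mist1 and 17.1 and 16.6 TPM without Xbp1, and at 120.0 and 109 TPM in the control PCs and 62.4 and 62.4 TPM without Mist1. Pecr was only mildly lower without Mist1 in PBs (ratio 0.664) and far lower without Xbp1. Nceh1 (a cholesterol ester hydrolase) and Gdpgp1 (a phosphorylase of GDP-glucose) had ratios in PCs of 0.367 and 0.555.

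Proteases and enzymes of protein turnover were 4 members: Htra2, Wdyhv1, Adamts10 and Capn5. The PBs held Htra2, a serine protease of mitochondria, at 64.4 and 65.8 TPM in the controls, 38.5 and 37.1 TPM without Mist1 and 51.1 and 44.1 TPM without Xbp1, and the PCs at 145 and 134 TPM in the controls and 28.6 and 31.9 TPM without Mist1. For Wdyhv1, an amidase of N-terminal glutamine, the values were 111 and 90.6 TPM in control PCs against 25.9 and 23.04 TPM without Mist1, and 21.5 and 27.6 TPM in control PBs against 16.7 and 12.7 TPM without Mist1 and 20.2 and 18.8 TPM without Xbp1. In both genes the libraries without Xbp1 lay below the controls. Adamts10, an extracellular metalloprotease, had a control mean 7.53-fold higher in PCs than in PBs. Capn5, a calpain, was at 38.8 and 38.03 TPM in the control PBs and 49.6 and 51.7 TPM without Xbp1, above both controls.

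Proteins that act on nucleic acids, chromatin or translation formed a group of 11: LOC100504608, Qtrt1, Kdm1b, Creb3l1, Zranb3, Ogg1, Mphosph10, Prdm15, Zfp810, Paip2b and Pdcd4. LOC100504608, the gene of a lysine methyltransferase of elongation factor eEF1A (Eef1akmt3), was at 18.5 and 19.7 TPM in the control PBs, 6.997 and 5.51 TPM without Mist1 and 1.24 and 0.176 TPM without Xbp1, and at 65.99 and 59.9 TPM in the control PCs and 10.01 and 10.4 TPM without Mist1. It had the lowest ratio of all members in PBs, and in the second library without Xbp1 it was nearly absent. The PBs held Qtrt1, the catalytic subunit that inserts queuine into tRNA, at 17.9 and 19.3 TPM in the controls, 7.13 and 7.01 TPM without Mist1 and 13.1 and 13.4 TPM without Xbp1, and the PCs at 135 and 129 TPM in the controls and 27.7 and 29.2 TPM without Mist1. For Kdm1b, a histone lysine demethylase, the values were 35.6 and 28.9 TPM in control PCs against 6.59 and 7.26 TPM without Mist1, and 8.35 and 8.78 TPM in control PBs against 5.66 and 4.51 TPM without Mist1 and 7.66 and 7.89 TPM without Xbp1. For Kdm1b and Qtrt1 the PB libraries without Xbp1 lay between those without Mist1 and the controls. Creb3l1, a transcription factor held in the endoplasmic reticulum membrane, was at 7.18 and 7.18 TPM in the control PBs, 4.63 and 3.87 TPM without Mist1 and 7.12 and 5.31 TPM without Xbp1, and at 8.19 and 6.36 TPM in the control PCs and 1.62 and 2.175 TPM without Mist1. The PBs held Zranb3, a DNA-annealing helicase, at 15.8 and 16.6 TPM in the controls, 10.03 and 9.81 TPM without Mist1 and 12.2 and 11.1 TPM without Xbp1, and the PCs at 24.1 and 24.7 TPM in the controls and 7.81 and 7.97 TPM without Mist1. For Pdcd4, an inhibitor of translation initiation, the values were 128 and 110.2 TPM in control PCs against 72.6 and 79.5 TPM without Mist1, and 30.5 and 33.3 TPM in control PBs against 20.3 and 20.9 TPM without Mist1 and 29.9 and 30.02 TPM without Xbp1. Pdcd4 was the member just inside the threshold in PCs. Ogg1 (the glycosylase of oxidised guanine), Mphosph10 (a ribosomal RNA processing protein), the zinc finger proteins Prdm15 and Zfp810, and Paip2b (an inhibitor of poly(A)-binding protein) had ratios in PCs between 0.433 and 0.488. Tmem120b, a membrane protein of the nuclear envelope, was at 14.6 and 18.8 TPM in the control PBs, 12.1 and 10.1 TPM without Mist1 and 11.5 and 13.4 TPM without Xbp1, and at 31.6 and 27.2 TPM in the control PCs and 7.22 and 6.24 TPM without Mist1. The roles of Tmem120b, BC003331, A430033K04Rik and the long noncoding RNA D030028A08Rik are less well defined, and their ratios were 0.501 to 0.663 in PBs and 0.229 to 0.635 in PCs.

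Most members were more strongly expressed in the control PCs than in the control PBs. The mean was higher in PCs for 56 of the 60 (93.3%), against 55.0% of the 8761 genes. The median ratio of the control means was 2.11 for members and 1.06 for the 8761 genes. Tmem150a stood farthest out, with a 33.3-fold higher mean in PCs, followed by Cib2 (11.6-fold) and Pecam1 (11.4-fold). The exceptions were P2rx3, D10Bwg1379e, Hs2st1 and Paip2b, and for Hs2st1 and Paip2b the control libraries of the stages overlapped. Among the 56, they also overlapped for Creb3l1 and Gdpgp1. Stage, culture, genotype label and library series coincide in this comparison and cannot be told apart, and the control libraries also entered the selection, so no test was made.

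**Figure D3:**
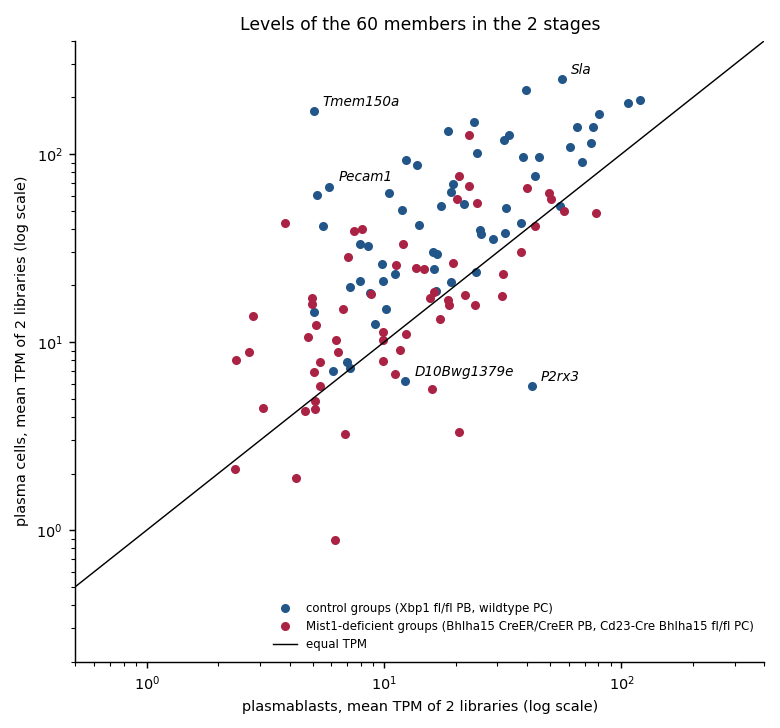
Mean TPM of 2 libraries in PBs (x axis) and PCs (y axis) for the 60 members, both on log scales; blue points are the control groups, red points the Mist1-deficient groups, and the line marks equal TPM. Blue points lie above the line for 56 members, and Tmem150a and P2rx3 are farthest from it on either side.

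Whether the members were also lower without Xbp1 was tested in the PBs. The selection did not use the libraries without Xbp1, although it used the same Xbp1(fl/fl) control libraries. The Bhlha15(CreER/CreER) libraries, which also chose members, entered the scaling, filter and variance estimate of this test. Bhlha15 itself was at 3.57 and 2.604 TPM in the PBs without Xbp1. Loss of Xbp1 and loss of Mist1 therefore cannot be told apart in this comparison. Without Xbp1, 48 of the 60 members (80.0%) were lower at an adjusted p under 0.05 by limma, against 23.0% of the 8761 genes and 18% of all 12125 genes tested. No member was higher, against 11.5% of the 8761 genes and 10.3% of all tested, and at an unadjusted p under 0.05 there were 2 that were higher. The median log2 fold change was -0.69 for members and -0.04 for the 8761 genes. Among the 623 genes with the same selection in PCs but not in PBs, 259 (41.6%) were lower without Xbp1, with a median log2 fold change of -0.24. Of the 11 selected in PBs but not in PCs, 4 were lower. With only the 4 libraries compared in the model, 49 members were lower and 1 was higher. Because the shared controls enter both the selection and the test, a gene that is high by chance in them is favoured in both. The comparison was therefore repeated with separate control libraries, an alternative chosen after seeing the data. When the first Xbp1(fl/fl) library alone chose the genes and the second alone was the control of the test, 32 of 54 genes (59.3%) were lower by limma, against 13.8% of 8704 genes of the same minimum level, with a median log2 fold change of -0.68. With the libraries exchanged, 38 of 84 (45.2%) were lower, against 16.4% of 8785, with a median of -0.54, and 1 was higher. Of the genes so chosen, 48 and 54 were among the 60 members.

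The 8 largest falls among members without Xbp1 began with LOC100504608. Its log2 fold change was -5.15 ± 0.58 (SE, 2 libraries against 2 in the model of all 6 PB libraries, limma adjusted p = 0.000303). For this nearly absent gene it was -6.26 without the first library without Xbp1, -4.03 without the second and -3.73 with a pseudocount of 1. D10Bwg1379e followed with -4.08 ± 0.25 (limma adjusted p = 1.01e-05). Myo1h fell to 0.844 and 0.611 TPM from 4.57 and 6.503 TPM, a log2 fold change of -2.95 ± 0.29 (limma adjusted p = 0.000146). Pecr was at -2.35 ± 0.11 (limma adjusted p = 2.6e-06). With a pseudocount of 1 the values of D10Bwg1379e and Myo1h were -3.04 and -2.01. These 4 were the members more than 3-fold lower. The others of the 8 were Pkd2l2 at -1.38 ± 0.12, Abcb6 at -1.29 ± 0.12, Paip2b at -1.27 ± 0.08 and Qsox2 at -1.24 ± 0.17, with limma adjusted p-values of 9.25e-05, 8.94e-05, 1.15e-05 and 0.00095. By role, the lower members numbered 6 of 7 in signalling, 12 of 14 in transport and traffic and 9 of 10 among metabolic enzymes. They numbered 9 of 11 among proteins of nucleic acids and translation and 6 of 10 among receptors, channels and other surface proteins. In each of the other groups 3 of 4 were lower.

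The 12 members without a call were Tmem150a, Pycr1, Sla, Kdm1b, Creb3l1, Ccrl2, Ehd3, Ttc7b, P2rx3, A430033K04Rik, Capn5 and Pecam1. Several of them belong to those with the deepest loss without Mist1. Tmem150a had a log2 fold change of -0.20 (95% interval -0.61 to 0.21), Pycr1 of -0.10 (-0.30 to 0.09) and Sla of -0.25 (-0.56 to 0.06). Without Mist1 in the same culture, the log2 ratios of deposited means that entered the selection were -0.85, -1.04 and -1.30 for these 3 genes, against the same controls. P2rx3 was at 0.36 (0.05 to 0.66) and Capn5 at 0.19 (0.01 to 0.37). Both of these were called higher (limma) with TPM as deposited (adjusted p = 0.00737 and 0.00775) and after quantile normalization.

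The scale of this comparison depends on the normalization, because deposited TPM were shifted between the groups. Over all genes tested, the log2 fold change had a median of 0.004 after scaling by the median of ratios, 0.072 after quantile normalization and 0.21 with TPM as deposited. The share of lower among all called genes was 63.6%, 43.9% and 28.4% under the same settings, and 48, 48 and 34 members were lower. Neutrophil markers also differed between these groups: 6 of the 8 listed were tested and all 6 were higher without Xbp1 (limma). Their summed TPM were 10.3 to 11.6 in the controls and 133 to 134 without Xbp1, with Elane at 0 in both groups and Mpo at 0 in the controls. The fibroblast feeder markers summed to 1101 and 1312 TPM in the controls and 1753 and 1608 TPM without Xbp1, and the plasma cell markers to 42109.5 and 42079 TPM against 21956 and 21335 TPM. Mzb1 and Igj make up most of the plasma cell sum, with means of 15284 and 22087 TPM in the controls and 3627 and 14078 TPM without Xbp1. Of the 10 plasma cell markers 6 were lower (limma) and the other 4, Sdc1, Prdm1, Irf4 and Tnfrsf13b, were not called. B cell markers summed to 930 to 959 TPM in the controls and 1029 to 1092 TPM without Xbp1, macrophage markers to 144 to 146 TPM and 34.1 to 37.3 TPM, nearly all of it Cd68 (means of 129.5 and 17.8 TPM) and Vcam1 (14.9 and 17.3 TPM), T cell markers to 9.10 to 10.9 TPM and 10.8 to 14.03 TPM, and erythroid markers to under 1.4 TPM in all of these libraries. The part of these cells in the members' values was not tested, and in bulk RNA fewer cells of a type and less RNA per cell cannot be told apart.

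**Figure D4:**
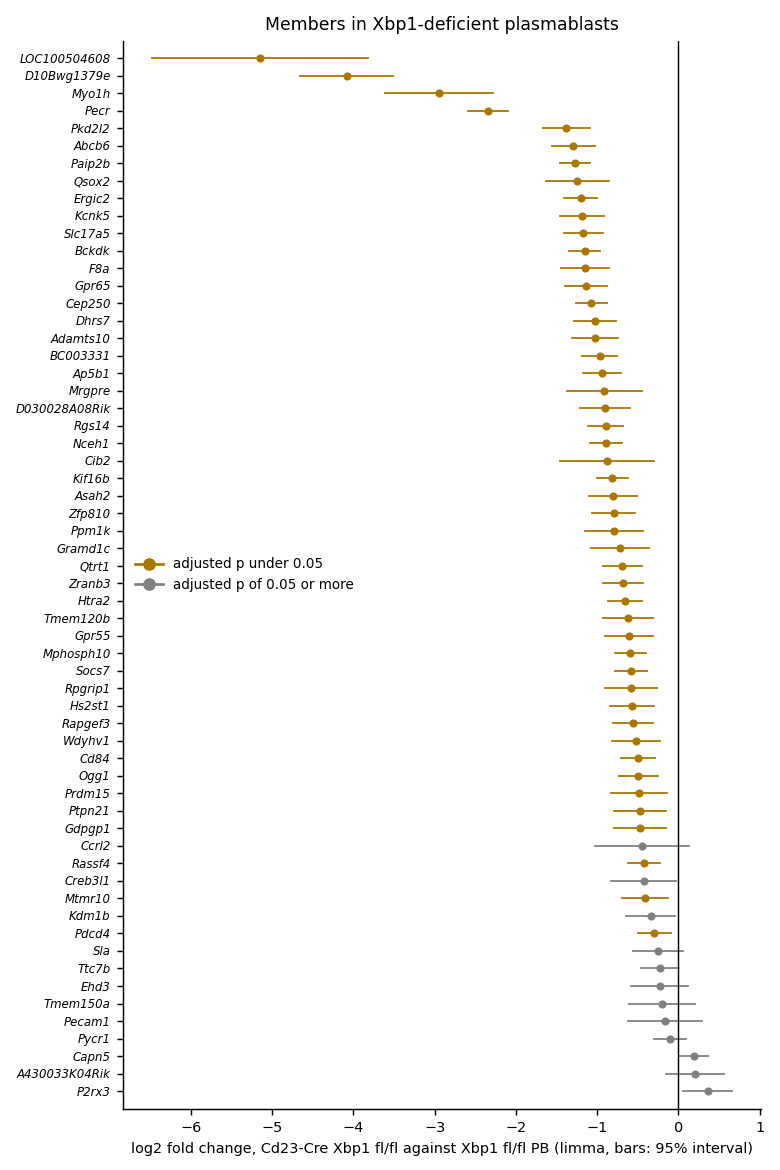
Log2 fold change of each of the 60 members in Cd23-Cre Xbp1(fl/fl) against Xbp1(fl/fl) PBs, with 95% intervals from limma on 2 libraries a group. The 48 members called lower are in brown and the 12 without a call in grey; LOC100504608, D10Bwg1379e, Myo1h and Pecr stand apart at the left end of the axis.

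Mist1 was bound at the start of nearly all members, as it was at most expressed genes. The lists used here held 29413 and 30247 regions, which gave 23804 regions common to both. The paper reports more peaks in each experiment and more in common, so a gene without a region here may have one there. A common region lay within 1 kb of an annotated transcription start for 55 of the 60 members (91.7%), against 74.5% of the 8560 matched genes of the same minimum level. For the 612 matched genes lower in PCs but not in PBs the share was 88.6%. Within 10 kb of the gene, a common region was found for 57 members (95%), against 88.4%. The remaining 3, without a common region there, were Asah2, D10Bwg1379e and Zfp810. Their nearest common regions lay at -45521, -100916 and -16080 bp from the start, negative values being upstream. With regions found in either experiment counted, 58 members had one within 10 kb (96.7%), against 94.6% of the 8560 genes. D10Bwg1379e, on chr10:18307817-18463564, was thus among the deepest losses in PCs with no common region nearby in the lists used here. Myo1h and Rpgrip1 had common regions in the gene body, and the region nearest to an annotated start lay 7858 bp and 3578 bp downstream of it. Binding was measured in lipopolysaccharide-stimulated PBs, a culture other than those of the RNA-seq samples, and the number of regions within 10 kb had a median of 2 both for members and for the 8560 genes.

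**Figure D5:**
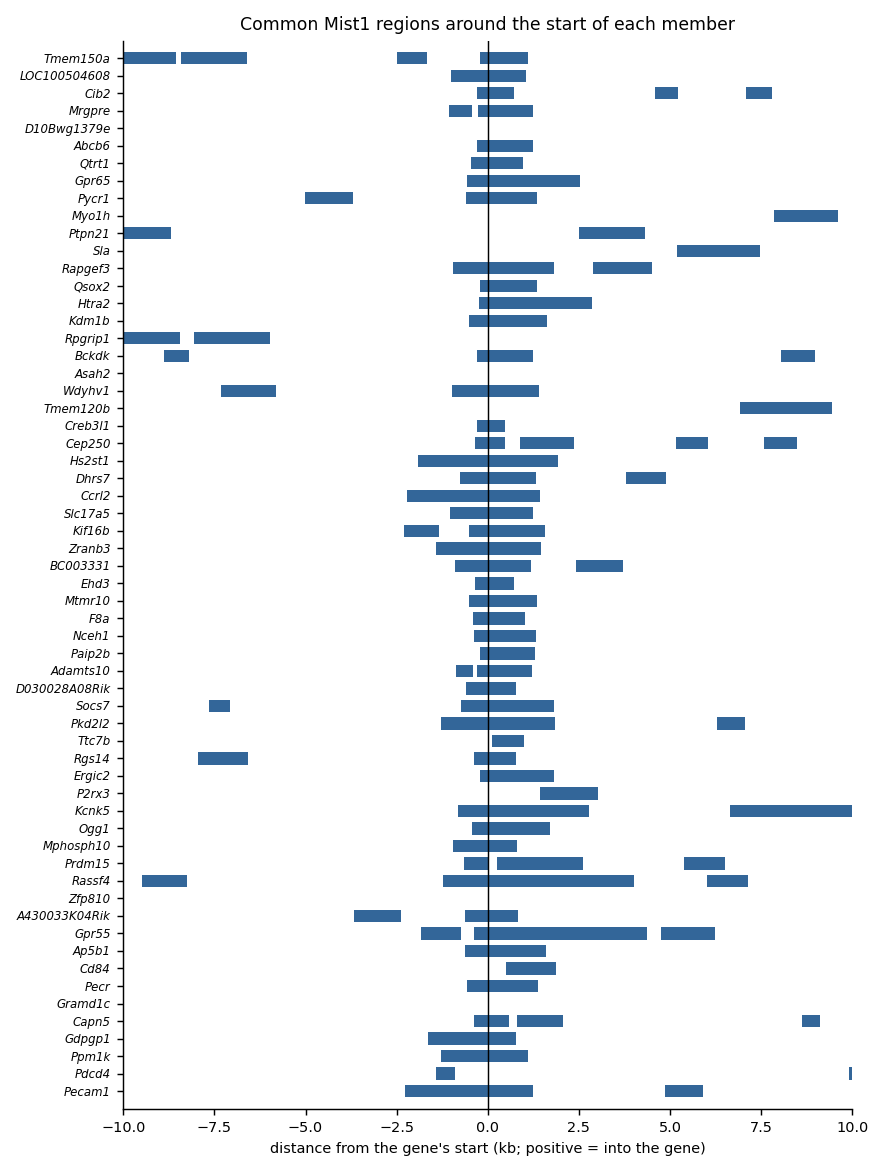
Common Mist1 regions (bars) within 10 kb of the most upstream annotated start of each member, in order of the geometric mean of the Mist1 ratios; positive distances lead into the gene. Bars cover or adjoin the start in most rows, and Sla, Tmem120b, P2rx3, Ptpn21 and Gramd1c, whose bars lie off the zero line or are missing, were counted as bound through another annotated start.

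The common regions at the starts of members are described by their width and their E-boxes beside all such regions. The 68 regions had a median width of 1878 bp, against 1346 bp for all 8336 common regions at starts of protein-coding genes. That set takes in genes of any expression level, so it was not matched to the members. In the central 200 bases any E-box CANNTG, read on both strands, was present in 76.5% of members' regions and in 61.3% of the 8336. CAGCTG was in 29.4% against 20.5%, CAGATG or its complement CATCTG in 22.1% against 13.4%, CACCTG or CAGGTG in 25.0% against 18.1%, and CATATG in 8.82% against 3.69%. CACGTG, the E-box of other factors of the family, was in 1.47% against 5.04%. Over all 23804 common regions, at starts or elsewhere, any E-box was in 76.7%, CAGCTG in 27.9% and CAGATG or CATCTG in 22.8%. In that wider set CACCTG or CAGGTG was in 20.2%, CATATG in 11.4% and CACGTG in 4.13%. These shares describe the sequences, and a shared region or word was not tested for an effect on any member.

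Other genes of the pathways around Mist1 were followed in lists of named genes, with changes called by limma. Over all genes tested, 0.272% were lower and 0.0495% higher in PBs without Mist1, and 16.2% were lower and 13.3% higher in PCs without Mist1. Of 9 genes described as Mist1 targets in other secretory cells, none was a member, since Rab3d and Mib1 had been left out by name. Rab3d and Mib1 were lower without Mist1 in PBs, 2 of 5 tested, and these together with Rab26, Copz2 and Ccpg1 were lower in PCs, 5 of 6 tested. Without Xbp1 3 of 5 were lower and 1, Cdkn1a, was higher. Aldh18a1, which makes the precursor of proline upstream of the member Pycr1, had mean levels of 209 TPM in control PCs and 95.2 TPM without Mist1, and was lower there. In PBs without Mist1 Aldh18a1 was not called (limma adjusted p = 0.219). Of 12 genes of exocytosis and Rab effectors, which again include Rab3d and Rab26, 1 of 8 tested (Rab3d) was lower in PBs. In PCs 5 of 9 were lower, Rab3d and Rab26 among them, and 1 was higher. Among 9 partners and regulators of Mist1 none was called in PBs, where Prdm1 and Irf4 had log2 fold changes of 0.20 and 0.03. In PCs 1 of these 9 (Id2) was lower and 2 (Irf4 and Tcf3) were higher.

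Of the members, 12 carry a suffix in the files that reads as a mark of overlap with another gene: Tmem150a, Myo1h, Htra2, Kdm1b, Rpgrip1, BC003331, Pkd2l2, Ttc7b, Ergic2, Ogg1, Rassf4 and Pdcd4. The kit keeps strand, but whether strand was used in counting is not given in the sources used here, so reads of overlapping genes in these 12 may not be separable.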

How the data were processed

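RNA-seq was measured in 10 libraries and Mist1 binding in 2 Bio-ChIP-seq experiments. For the expression files, the authors trimmed 50-base single reads with cutadapt, aligned them to mm9 with STAR 2.4.2, counted them with featureCounts 1.5 and deposited TPM per gene, with immunoglobulin and T cell receptor genes left out. For the binding files, the authors aligned reads with Bowtie 1.0.0 and deposited positions of regions called in each experiment with MACS, at a P value under 1e-10. Versions are as in the submitters' processing notes, with SAMtools 1.9 and Picard 2.18.27 also named there. The authors used DESeq2, which needs counts. TPM are not counts, so limma 3.58.1 in R 4.3.3 was used here.

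Libraries were grouped by the labels. TPM were scaled by the median of ratios within the 6 PB libraries and within the 4 PC libraries. Genes of at least 1 TPM in 2 libraries were fitted on log2(TPM + 0.1) with a trend in the variance, two-sided, with Benjamini-Hochberg adjustment over all genes tested (12125 in PBs, 12028 in PCs). Fold changes are on that scale, which understates changes of weakly expressed genes. TPM give no depth, so no counting interval can be given. Nothing in the labels says that libraries of a group came from separate animals, so p-values measure the spread between these libraries only. PB and PC tables were normalized separately, and no test crosses them. The procedure was tested on simulated data.

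Regions overlapping by at least 1 bp between experiments were merged with bedtools 2.31.1 and matched to GENCODE M1 genes on mm9 by name, or for 3 members by an older name or RefSeq gene number (all 60 matched). The members, gene lists and role groups were chosen with earlier results of these data known. Genes with values in every library are the 14 of lowest geometric mean ratio, the 3 highest in control PCs, members of the study's list of Mist1-activated genes and those at the thresholds. Capn5, P2rx3 and Pecr were chosen after their values were seen. Lists of Mist1 targets in other secretory cells, partners and regulators, exocytosis and markers of plasma, B, T, neutrophil, macrophage, feeder and erythroid cells are described by counts or sums. A list of proline synthesis genes and part of a sorting gate are not reported here. Alternatives were other scalings, pseudocounts, filters, thresholds and region definitions, and each library left out.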

Additional observations from a re-analysis of the deposited data

Results flagged for a closer look

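Tnfrsf13b, which encodes the receptor TACI and is no member, was noted because its Mist1-deficient libraries lay on opposite sides of the controls in the 2 stages. Its log2 ratio of means without Mist1 to control was -0.35 in PBs, where both Mist1-deficient libraries (180.0 and 190.5 TPM) lay below both controls (252 and 220.6 TPM). It was 0.07 in PCs, where both Mist1-deficient libraries (348.2 and 356 TPM) lay above both controls (347.7 and 324 TPM). Neither change passed the test (limma adjusted p = 0.393 in PBs and 0.388 in PCs). The difference between the stages was not tested, and TACI was a marker of the PC sort.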

How the results depend on the processing

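The number of members depends on its thresholds. It was 10 at a ratio of at most 0.5, 183 at 0.75, 42 at a control minimum of 10 TPM, 120 at a minimum of 1 TPM and 50 after scaling by the median of ratios, with 10, 60, 42, 60 and 50 of the 60 members among them. With a library left out it ranged from 54 to 114, and the 114 came without the first Bhlha15(CreER/CreER) library. Without Xbp1, between 34 and 49 members were lower under every alternative, and the 34 with TPM as deposited were all among the 48. With separate control libraries for selection and test, 59.3% and 45.2% of the chosen genes were lower in place of 80.0%. Members higher numbered 2 with TPM as deposited and 2 after quantile normalization (P2rx3 and Capn5), 1 in a model of the 4 libraries compared, and 0 to 1 with a library left out. The sign of 3 uncalled members turned: Tmem150a (0.00), Pycr1 (0.10) and Pecam1 (0.037) were not below 0 on the log2 scale with TPM as deposited, and Pycr1 (0.016) after quantile normalization. Pecam1 ranged from -0.385 to 0.051 with a library left out. No called member changed direction. The cause was not tested. The calls of Pdcd4, Cib2, Mtmr10, Prdm15, Ptpn21 and Gdpgp1 were lost most often, under 6 to 8 of 13 alternatives. Shares of members bound at the start were 85% to 95% under other definitions of a region, beside 69.1% to 85.7% of the expressed genes. No paired analysis was possible because the labels carry no replicate numbers, and those used here only name the libraries in the order of their listing.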
